A study of Homo sapiens with 24 samples.

Results

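The BCL2 family apoptosis regulators described here were 10 genes, found by mapping the Ensembl gene identifiers of the count table to the symbols BCL2, BCL2L1, MCL1, BAX, BAK1, BID, BIK, BMF, BCL2L11 and PMAIP1. All 10 were among the 60617 genes of the table, and all 10 were among the 15476 genes with enough counts to be tested. The study treated MDA686TU, 1 malignant squamous cell carcinoma line of the head and neck, for 24 h and sequenced mRNA from 4 groups of 6 libraries. The groups were cells with no treatment (control), cells with EGCG at 40 µM, cells with resveratrol at 15 µM, and cells with both agents at these doses (combination). EGCG is the main polyphenol of green tea and resveratrol is a polyphenol of grapes. Resveratrol was added from a DMSO stock and EGCG from water, and whether control cultures also got DMSO is not given in the sources used here, so resveratrol and its solvent cannot be told apart.

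BCL2 family proteins meet at the outer mitochondrial membrane and set whether it becomes leaky, the step that releases cytochrome c and starts the caspases. BCL2, BCL-XL (from BCL2L1) and MCL1 keep the membrane intact, BAX and BAK (from BAK1) form the pores, and the BH3-only proteins BID, BIM (from BCL2L11), NOXA (from PMAIP1), BIK and BMF either activate the pore formers or occupy the protective proteins. Squamous carcinomas are known to lean on BCL-XL and MCL1, and much of the control of these proteins lies in cleavage, phosphorylation and turnover, which RNA counts do not show.

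The libraries held 7034872 to 11735574 counts. All 8 squamous epithelial marker genes had a median of at least 1 FPKM (a count scaled for gene length and library depth) in every group, against 1 of 5 fibroblast markers, 0 of 4 leukocyte markers and 0 of 3 endothelial markers. The summed level of the squamous markers was 5418 to 5763 FPKM in control and 5186 to 5873 with EGCG, and lower, without overlap, at 4425 to 4700 with resveratrol and 4322 to 4716 with the combination. The fibroblast sum was 13.1 to 15.8 FPKM in control, 10.7 to 13.2 with EGCG, 15.4 to 18.4 with resveratrol and 18.0 to 20.8 with the combination. COL1A1 made up nearly all of it, with a median of 15.2 FPKM over the 24 libraries, against 0.302 for LUM and less for COL1A2, PDGFRB and DCN. The part of these shifts in the squamous and fibroblast sums in the results below was not tested. The share of mitochondrial transcripts was 0.249% to 0.326% in the libraries numbered 1 to 3 and 0.448% to 0.775% in those numbered 4 to 6, whatever the group. The labels name no batch, and each set holds 3 libraries of every group. Replicate 3 of the combination lay farthest from its group, with a median absolute deviation of 0.121 on the log2 scale over all genes tested, against at most 0.0934 in the other 23 libraries. Levels below are the authors' normalized counts unless FPKM is named, and changes are log2 fold changes with their standard error from edgeR. Calls follow the thresholds of the study's methods, an adjusted p (Benjamini-Hochberg) below 0.1 together with a p below 0.05. The labels do not say that the replicates were separate cultures, so p-values measure the spread between these libraries.

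With resveratrol, alone or with EGCG, 4 of the 5 BH3-only genes (PMAIP1, BCL2L11, BID and BIK, but not BMF) were called higher and both pore formers lower. Of all genes tested, 28.9% were called higher and 28.0% lower with resveratrol, and 29.9% and 29.9% with the combination. The BIK change with resveratrol was -0.03 on the log2 scale within replicates 1 to 3. When libraries were scaled by library size alone, both BAX calls and the BAK1 call with the combination were lost. PMAIP1 rose 1.51-fold with resveratrol and 1.65-fold with the combination, BCL2L11 rose 1.28-fold and 1.296-fold, and BID rose 1.17-fold and 1.18-fold. BAX was at 0.922 and 0.891 of the control level, and BAK1 at 0.852 and 0.886. Of the protective genes, MCL1 and BCL2L1 moved by less than 10% where they were called, and BCL2 was not called in any comparison. None of the 10 was called with EGCG alone, where 0.905% of all genes were called higher and 0.859% lower. BCL2L1 and BMF had an unadjusted p under 0.05 with EGCG in edgeR.

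**Figure D1:**
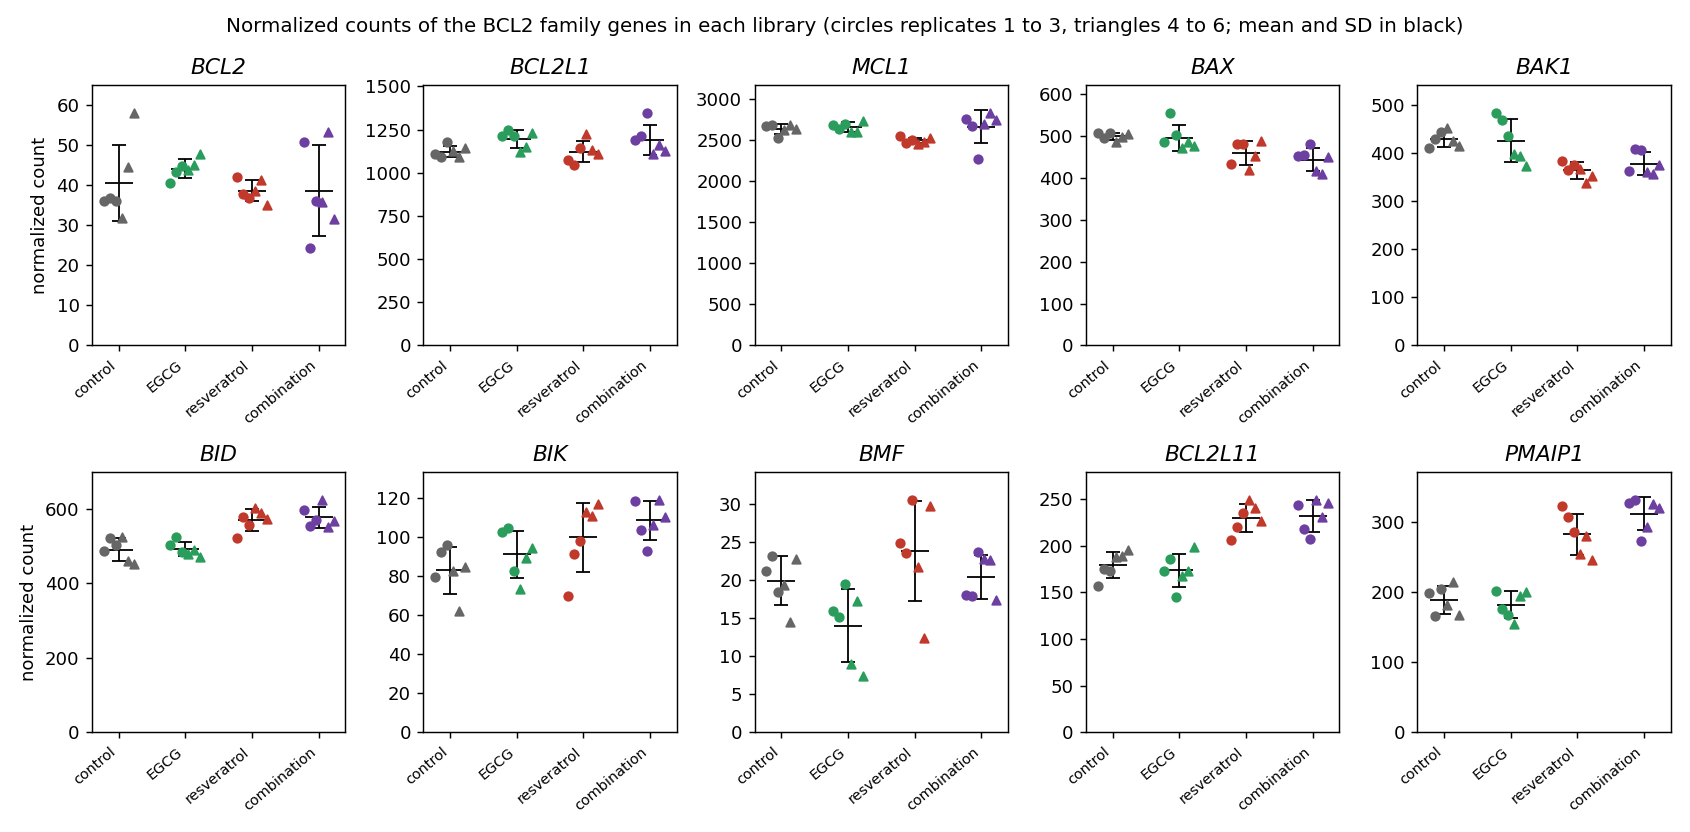
Normalized counts (vertical axis, from 0) of each of the 10 genes in every library, by group (horizontal axis). Circles are replicates 1 to 3, triangles replicates 4 to 6, and black bars the mean and SD of 6 libraries. For PMAIP1 and BCL2L11, all 6 libraries of the resveratrol and of the combination group lie above all 6 control libraries.

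With resveratrol, 4 of the 10 genes were called higher (BID, BIK, BCL2L11 and PMAIP1) and 3 lower (MCL1, BAX and BAK1), where 28.9% and 28.0% of all genes tested were called higher and lower. With the combination, 5 were called higher (BCL2L1, BID, BIK, BCL2L11 and PMAIP1) and 2 lower (BAX and BAK1), against 29.9% and 29.9% of all genes. With EGCG, 0 of the 10 were called by edgeR and 0 by DESeq2, against 0.905% of all genes called higher and 0.859% lower, and 2 of the 10 (BCL2L1 and BMF) had an unadjusted p under 0.05 in edgeR. The 6 treated libraries did not overlap the 6 control libraries for 0 of the 10 genes under EGCG (1.58% of all genes), 3 under resveratrol (31.0% of all genes) and 5 under the combination (31.9% of all genes). The median log2 fold change of the 10 genes was 0.00043 for EGCG, 0.11 for resveratrol and 0.07 for the combination, beside 0.0009, 0.0037 and -0.0015 over all genes tested. The counts of the 10 genes with resveratrol and with the combination share the same control libraries. Scaling by library size alone placed the median of all genes at 0.092 with resveratrol and 0.081 with the combination. It gave 5 higher and 1 lower of the 10 with resveratrol and 6 higher and 0 lower with the combination. Under that scaling, 6147 of all 15476 genes were called higher and 2857 lower with resveratrol. With the combination 6041 of all genes were called higher and 3311 lower.

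**Figure D2:**
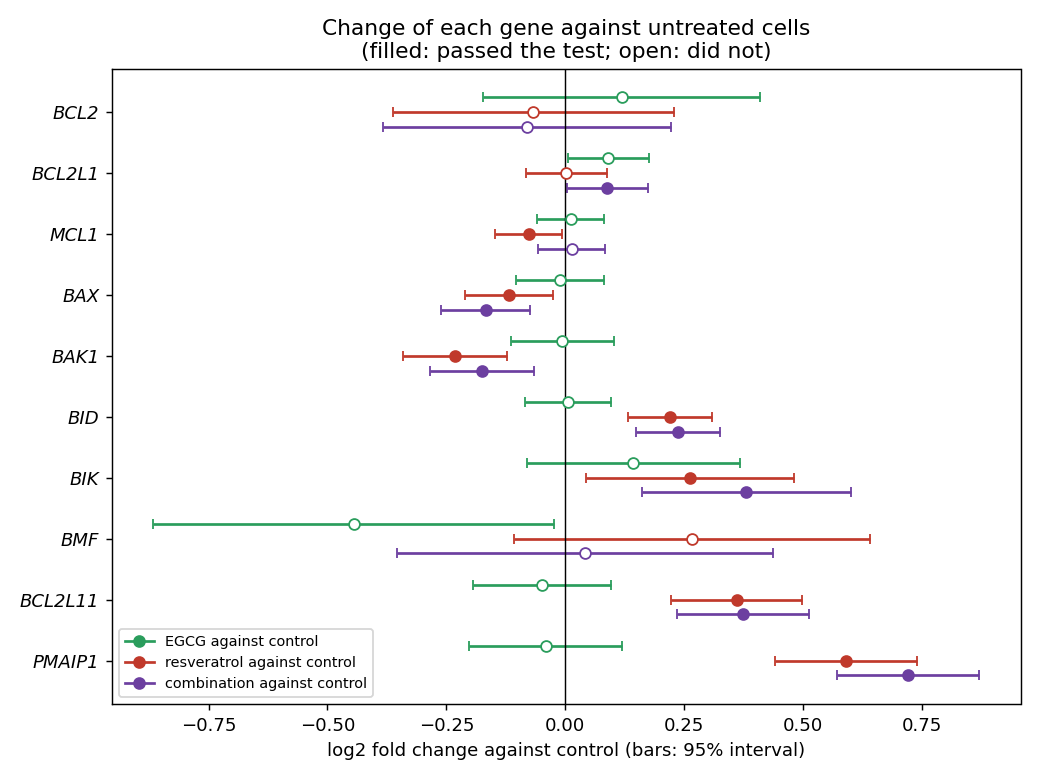
Log2 fold change against control (horizontal axis) of each of the 10 genes, 1 colour per treatment, with 95% intervals as bars and filled points for genes that were called. PMAIP1, BCL2L11, BID and BIK lie to the right of 0 and BAX and BAK1 to the left with resveratrol and with the combination, and all EGCG points are open.

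Per length of gene, the protective genes MCL1 and BCL2L1 were the most abundant in control cells, at 69.1 FPKM ± 1.60 (SD, n = 6) and 38.8 FPKM ± 1.18. The pore formers followed at 22.2 FPKM ± 0.829 for BAK1 and 22.2 FPKM ± 0.368 for BAX, and their libraries overlapped. BID stood at 12.7 FPKM ± 0.788, BIK at 9.97 FPKM ± 1.45 and PMAIP1 at 9.68 FPKM ± 1.03, with BIK and PMAIP1 overlapping. BCL2L11 was at 3.08 FPKM ± 0.241. BMF (0.419 FPKM ± 0.0682) and BCL2 itself (0.394 FPKM ± 0.0926) were the lowest and overlapped each other. With the combination PMAIP1 reached 15.99 FPKM ± 1.21 and took rank 5 of the 10 genes by mean, above BID at 14.9 FPKM ± 0.736, with overlapping libraries.

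Among the protective genes, BCL2 (GRCh38 chr18:63123346-63320128, minus strand), the founding member of the family, had 31.6, 36.4 and 57.9 normalized counts in control (lowest, median and highest of 6 libraries). The same values were 40.4, 44.2 and 47.7 with EGCG, 35.1, 38.1 and 42.0 under resveratrol, and 24.3, 35.8 and 53.3 under the combination. All 4 groups overlapped, and the raw counts of 23 to 61 per library make this one of the least precise measurements of the 10. Against control, EGCG gave a log2 fold change of 0.12 ± 0.143 (SE), resveratrol -0.07 ± 0.146 and the combination -0.08 ± 0.149, whose 95% interval ran from -0.38 to 0.22.

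BCL2L1 (chr20:31664452-31723989, minus strand), which encodes BCL-XL and, from another splice form, the pro-apoptotic BCL-XS, had 1090, 1117 and 1179 normalized counts in control. It had 1118, 1214 and 1246 with EGCG, 1048, 1121 and 1227 under resveratrol, and 1111, 1177 and 1347 under the combination. Most EGCG and combination libraries lay above the control mean (5 of 6 each), but every group overlapped the control. The combination was called higher by edgeR (log2 fold change 0.09 ± 0.0417, adjusted p = 0.0685). EGCG gave a log2 fold change of the same size (0.09 ± 0.0417) that missed the threshold in edgeR (adjusted p = 0.429). The unadjusted p in edgeR was 0.0353 with EGCG and 0.0398 with the combination. The adjustment runs over all genes tested, of which 273 were called with EGCG and 9258 with the combination. The highest combination value came from replicate 3, and without that library the log2 fold change was 0.05 (edgeR, adjusted p = 0.296). The call was also lost without replicate 2 of the combination (0.08) or without replicate 1, 2 or 4 of the control (0.08, 0.08 and 0.09). Within replicates 1 to 3 the log2 fold change was 0.16 and within replicates 4 to 6 it was 0.02. Gene-level counts do not separate the BCL2L1 splice forms.

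MCL1 (chr1:150560895-150579738, minus strand) encodes a short-lived protective protein that NOXA binds. It had 2522, 2648 and 2684 normalized counts in control, 2590, 2657 and 2731 with EGCG, 2449, 2486 and 2542 under resveratrol, and 2261, 2717 and 2826 under the combination. All 6 resveratrol libraries lay below the control mean, although the highest of them exceeded the lowest control library. MCL1 was called lower with resveratrol by edgeR (log2 fold change -0.08 ± 0.0347, adjusted p = 0.0613), a direction that turned to 0.01 when libraries were scaled by library size alone. The call was lost without control replicate 1, 2 or 5 or resveratrol replicate 2 or 4, and the smallest value, without control replicate 5, was -0.05. With the combination the log2 fold change from control was 0.01 ± 0.0347, with 5 of 6 libraries above the control mean and replicate 3, at 2261, below every other MCL1 value. Without that replicate the log2 fold change was 0.06 and MCL1 was called higher by edgeR (adjusted p = 0.0709).

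The pore former BAX (chr19:48954815-48961798, plus strand) moves from the cytosol to mitochondria when activated. It had 487, 501 and 509 normalized counts in control, 473, 486 and 556 with EGCG, 420.4, 466 and 489 under resveratrol, and 409, 451 and 481 under the combination. The 6 combination libraries all lay below the 6 control libraries, while the highest resveratrol library exceeded the lowest control library. BAX was called lower in edgeR both with resveratrol (log2 fold change -0.12 ± 0.0454, adjusted p = 0.0289) and with the combination (-0.17 ± 0.0462, adjusted p = 0.00235), each in 6 of 6 libraries relative to the control mean. Under scaling by library size alone neither was called, at -0.03 with resveratrol and -0.08 with the combination. The BAX value with resveratrol was -0.11 within replicates 1 to 3, where it was not called (edgeR, adjusted p = 0.209). It was -0.13 within replicates 4 to 6, where it was called (edgeR, adjusted p = 0.0855).

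BAK1 (chr6:33572547-33580293, minus strand) encodes BAK, the pore former that sits in the mitochondrial membrane. It had 411, 426 and 451 normalized counts in control, 373, 416.5 and 483 with EGCG, 337.5, 366 and 384 under resveratrol, and 357, 369 and 407 under the combination. Neither the resveratrol nor the combination libraries overlapped the control libraries, which were higher, and the EGCG libraries spread on both sides, from the lowest in replicate 6 to the highest in replicate 1. The fall passed the edgeR test with resveratrol (log2 fold change -0.23 ± 0.0536, adjusted p = 0.000431) and with the combination (-0.18 ± 0.0541, adjusted p = 0.00606), the latter not under scaling by library size alone (-0.09). The pseudogene copy BAK1P1 had a mean of 30.3 raw counts against 405 for BAK1 and was not called with either treatment (edgeR, adjusted p = 0.485 and 0.613). Within replicates 1 to 3 alone, where 3 libraries meet 3, the combination gave -0.12 for BAX and -0.12 for BAK1, and neither was called (edgeR, adjusted p = 0.169 and 0.181). Within replicates 4 to 6 the values were -0.22 and -0.24, and both were called (edgeR, adjusted p = 0.00348 and 0.00268).

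The promoters of both pore formers are shown because their RNA fell together, as the bases before the RefSeq start that lie outside annotated exons of the same strand (GRCh38.p14, 5′ to 3′, capitals mark the motifs). BAX is shown from chr19:48954625-48954814, plus strand, and BAK1 from chr6:33580294-33580526, minus strand. The capitals in BAX are 2 E-boxes (CACGTG), the first of which overlaps 1 cyclic AMP response element core (TGACG), and those in BAK1 are 2 GC boxes (GGGCGG, one on each strand).
BAX: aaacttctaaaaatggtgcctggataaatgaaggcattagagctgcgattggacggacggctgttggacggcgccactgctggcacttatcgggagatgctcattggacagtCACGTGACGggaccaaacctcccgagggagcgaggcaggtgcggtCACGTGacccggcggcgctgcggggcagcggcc
BAK1: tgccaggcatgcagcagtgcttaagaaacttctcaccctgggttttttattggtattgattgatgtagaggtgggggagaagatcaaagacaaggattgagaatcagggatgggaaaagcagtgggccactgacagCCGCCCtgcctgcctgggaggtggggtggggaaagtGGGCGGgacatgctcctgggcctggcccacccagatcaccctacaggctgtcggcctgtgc
Searched on both strands, CACGTG was in 4.13% and TGACG in 14.7% of 35116 RefSeq promoter windows cut to the same 190 bases, and GGGCGG was in 40.4% of windows cut to 233 bases. The BAX window held no GC box, and the BAK1 window held neither of the other motifs.

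BID (chr22:17734138-17774770, minus strand), the BH3-only protein that caspase-8 cleaves, had 452, 494 and 524 normalized counts in control, 472, 487 and 525 with EGCG, 521, 577 and 602 under resveratrol, and 551, 568 and 625 under the combination. The combination libraries all lay above the control libraries, and the lowest resveratrol library fell just under the highest control libraries. Both rises passed the edgeR test, at a log2 fold change of 0.22 ± 0.0435 with resveratrol (adjusted p = 5.73e-05) and 0.24 ± 0.0439 with the combination (adjusted p = 1.98e-05), and were higher than the control mean in 6 of 6 libraries. With EGCG the log2 fold change was 0.01 ± 0.0446.

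BCL2L11 (chr2:111119378-111168444, plus strand) encodes BIM, which binds all protective members and can activate the pore formers. It had 157, 181 and 195 normalized counts in control, 145, 173 and 198 with EGCG, 206, 230.6 and 248 under resveratrol, and 207, 237 and 249.2 under the combination. All 12 libraries with resveratrol, alone or combined, were above all 6 control libraries, whereas the EGCG libraries covered the control range. The log2 fold change was 0.36 ± 0.0675 with resveratrol (edgeR, adjusted p = 2.66e-05) and 0.37 ± 0.0684 with the combination (edgeR, adjusted p = 1.59e-05). It held within replicates 1 to 3 (0.40 and 0.41) and within replicates 4 to 6 (0.33 and 0.34). Exons of the non-coding gene MIR4435-2HG lie on the opposite strand of BCL2L11 exons, and whether reads were counted by strand is not given in the sources used here. MIR4435-2HG had more counts than BCL2L11 and fell, from a mean of 785 normalized counts in control to 520 with resveratrol (log2 fold change -0.59, edgeR, adjusted p = 1.43e-15) and 534 with the combination (-0.55, edgeR, adjusted p = 7.08e-15), and its part in the BCL2L11 values was not tested.

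PMAIP1 (chr18:59899996-59904305, plus strand) encodes NOXA, a BH3-only protein that binds chiefly MCL1. It had 166, 189.9 and 214 normalized counts in control, 154, 185 and 202 with EGCG, 246.5, 283 and 323 under resveratrol, and 273.5, 323 and 332 under the combination. Each of the 12 libraries with resveratrol was above each of the 12 without it. PMAIP1 had the largest change of the 10 genes, a log2 fold change of 0.59 ± 0.0734 with resveratrol (edgeR, adjusted p = 1.75e-08) and 0.72 ± 0.0735 with the combination (edgeR, adjusted p = 1.59e-10). Within replicates 1 to 3 the values were 0.69 and 0.71, and within replicates 4 to 6 they were 0.47 and 0.74, called in each set. With EGCG alone the log2 fold change was -0.04 ± 0.0792, with a 95% interval from -0.20 to 0.12.

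The promoters of PMAIP1 and BCL2L11, the genes whose libraries separated in both comparisons upward, are printed the same way, with the 250 bases before the RefSeq start. PMAIP1 is read from chr18:59899746-59899995 and BCL2L11 from chr2:111120664-111120913, both on the plus strand of GRCh38.p14. The BCL2L11 window lies inside the annotated gene, downstream of its first annotated base, and in no annotated exon of that strand. Capitals mark 4 GC boxes (GGGCGG on either strand) and 1 cyclic AMP response element core (TGACG, read here as its complement) in PMAIP1, and 3 GC boxes in BCL2L11.
PMAIP1: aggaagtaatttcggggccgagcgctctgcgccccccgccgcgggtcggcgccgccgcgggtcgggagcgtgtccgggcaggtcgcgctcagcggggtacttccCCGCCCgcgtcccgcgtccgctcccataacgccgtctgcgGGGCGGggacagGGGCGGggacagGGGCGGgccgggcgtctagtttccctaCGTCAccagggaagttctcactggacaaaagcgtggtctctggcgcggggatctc
BCL2L11: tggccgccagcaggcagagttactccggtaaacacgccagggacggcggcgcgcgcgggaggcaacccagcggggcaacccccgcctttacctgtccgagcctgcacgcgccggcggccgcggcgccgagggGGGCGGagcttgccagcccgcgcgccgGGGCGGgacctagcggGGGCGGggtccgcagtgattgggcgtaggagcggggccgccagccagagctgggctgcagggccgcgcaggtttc
Of 35116 RefSeq windows of 250 bases, GGGCGG was in 42.6%, TGACG in 21.2%, CACGTG in 6.34% and the C/EBP-ATF composite motif TGATGNAA in 3.14%. TGATGNAA was in none of the 4 windows printed here.

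BIK (chr22:43110750-43129712, plus strand), a BH3-only protein of the endoplasmic reticulum, had 61.8, 83.6 and 96.0 normalized counts in control, 73.3, 91.6 and 104 with EGCG, 69.7, 104 and 117 under resveratrol, and 92.9, 108 and 119 under the combination. The groups overlapped, with 5 of 6 resveratrol and 6 of 6 combination libraries above the control mean. BIK was called higher with resveratrol (log2 fold change 0.26 ± 0.108, edgeR, adjusted p = 0.0403) and with the combination (0.38 ± 0.108, edgeR, adjusted p = 0.00302). The value with resveratrol was -0.03 within replicates 1 to 3 and 0.57 within replicates 4 to 6, and with the combination it was 0.23 and 0.54. Neither treatment was called within replicates 1 to 3 (edgeR, adjusted p = 0.881 and 0.185), and both were called within replicates 4 to 6. The resveratrol call was also lost without control replicate 5 (0.21) or resveratrol replicate 4 (0.22) or 6 (0.22).

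BMF (chr15:40087890-40108892, minus strand), a BH3-only protein tied to the cytoskeleton through the light chain DYNLL2, had few reads, 6 to 35 raw counts per library. Its normalized counts were 14.4, 20.3 and 23.1 in control, 7.33, 15.5 and 19.4 with EGCG, 12.4, 24.2 and 30.6 under resveratrol, and 17.3, 20.4 and 23.7 under the combination. All 6 EGCG libraries were below the control mean, and they overlapped the control group. BMF was not called against control with EGCG (log2 fold change -0.44 ± 0.208, edgeR, adjusted p = 0.449), resveratrol (0.27 ± 0.185) or the combination (0.04 ± 0.195). Without resveratrol replicate 5, the lowest library of its group, BMF was called higher with resveratrol (0.39, edgeR, adjusted p = 0.0597). At these counts changes of up to 0.64 with resveratrol and 0.44 with the combination lie within the 95% intervals. Since each library is a bulk lysate, fewer cells that express a gene and less of its RNA per cell cannot be told apart for any of the 10.

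**Figure D3:**
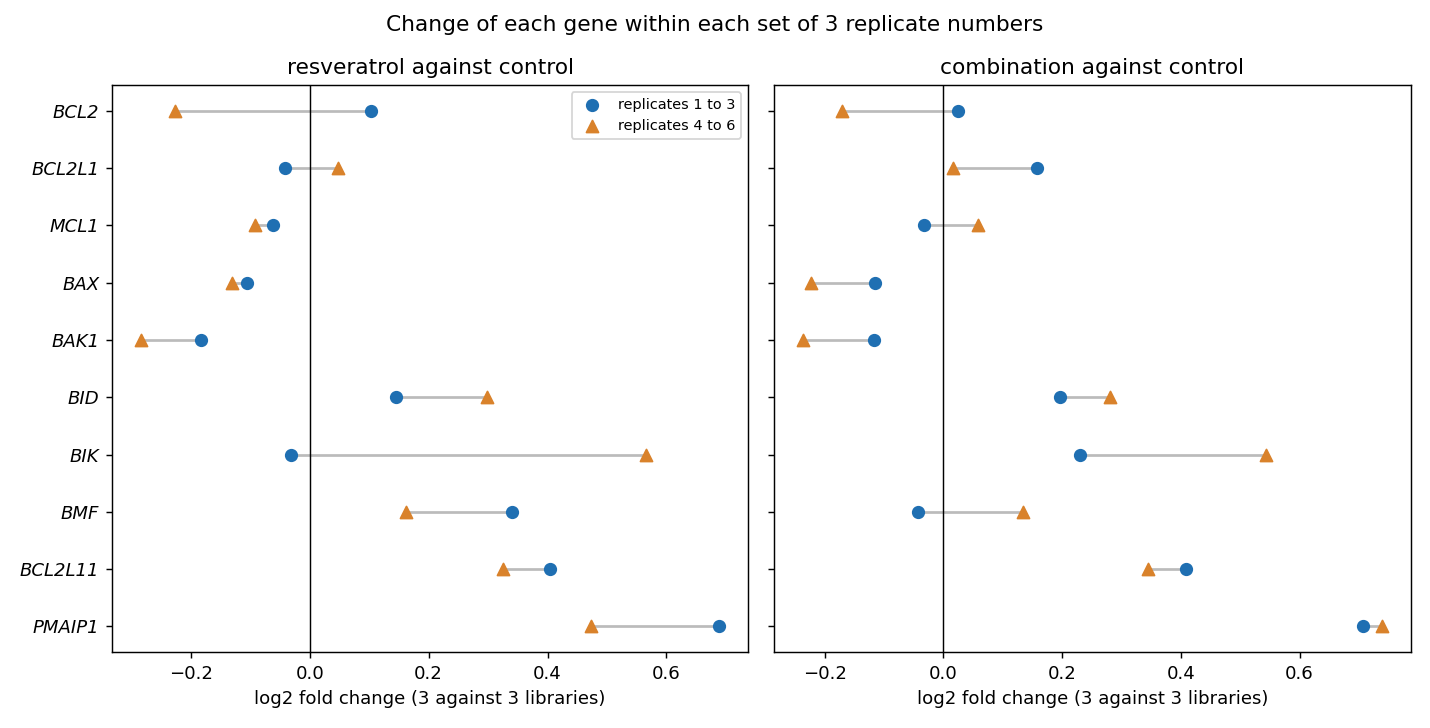
Log2 fold change of each gene within replicates 1 to 3 (circles) and replicates 4 to 6 (triangles), 3 libraries against 3, for resveratrol against control (left) and the combination against control (right). PMAIP1, BCL2L11 and BID lie above 0 and BAX and BAK1 below 0 in both sets, and BIK with resveratrol lies at -0.03 in one set and 0.57 in the other.

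The combination was then set against each agent alone, at matched doses and time, as 2 pairs with p-values adjusted over all 15476 genes. Against resveratrol, 0 of the 10 genes were called by edgeR and 0 by DESeq2, beside 4.01% of all genes called higher and 3.86% lower. In edgeR, 2 of them had an unadjusted p under 0.05, MCL1 (log2 fold change 0.09 ± 0.0348, edgeR, adjusted p = 0.135) and BCL2L1 (0.09 ± 0.0416, edgeR, adjusted p = 0.264). Without combination replicate 3, MCL1 was called higher with the combination than with resveratrol (0.13 ± 0.0263, edgeR, adjusted p = 0.00123). Within replicates 4 to 6, MCL1 was called at 0.15 (edgeR, adjusted p = 0.0278), and within replicates 1 to 3 BCL2L1 was called at 0.20 (edgeR, adjusted p = 0.0447). PMAIP1 differed by 0.13 ± 0.0688 (edgeR, adjusted p = 0.318), with a 95% interval from -0.01 to 0.27. The intervals were -0.12 to 0.15 for BCL2L11, -0.07 to 0.10 for BID, -0.14 to 0.04 for BAX and -0.06 to 0.17 for BAK1.

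Against EGCG, the combination had 5 of the 10 called higher (BID, BIK, BMF, BCL2L11 and PMAIP1) and 2 lower (BAX and BAK1), beside 28.7% and 29.1% of all genes. Under scaling by library size alone the counts were 6 higher and 0 lower of the 10, beside 5737 higher and 3250 lower of all 15476 genes. PMAIP1 differed by 0.76 ± 0.0741 (edgeR, adjusted p = 6.52e-11), BCL2L11 by 0.42 ± 0.0691 (edgeR, adjusted p = 3.01e-06) and BID by 0.23 ± 0.0441 (edgeR, adjusted p = 3.56e-05), and their combination libraries were all above their EGCG libraries. BMF differed by 0.49 ± 0.209 (edgeR, adjusted p = 0.0492), a call lost without EGCG replicate 4 or 6 or combination replicate 3 (0.42, 0.40 and 0.43). BIK differed by 0.24 ± 0.107 (edgeR, adjusted p = 0.0588) and lost its call without EGCG replicate 3, 4 or 5 or combination replicate 1 or 5, at 0.21 to 0.23. Neither BMF (0.26) nor BIK (0.11) was called within replicates 1 to 3 (edgeR, adjusted p = 0.469 and 0.560). Both were called within replicates 4 to 6, at 0.76 and 0.37. BAX was called lower by edgeR (-0.16 ± 0.0464, adjusted p = 0.00462), and so was BAK1 (-0.17 ± 0.0542, edgeR, adjusted p = 0.00853). The BAK1 call was lost without EGCG replicate 1 (-0.11) and within replicates 4 to 6 (-0.09). BCL2 was not called (-0.20 ± 0.147, edgeR, adjusted p = 0.264) but passed without combination replicate 5 (-0.31, adjusted p = 0.0843).

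The interaction of the agents asks whether the combination differed from the sum of both single changes on the log2 scale. It was called for 0 of the 10 genes by edgeR and 0 by DESeq2, with 0 at an unadjusted p under 0.05 in edgeR, beside 0.207% of all genes called higher and 0.0582% lower. The estimate was 0.17 for PMAIP1, 0.06 for BCL2L11 and 0.08 for MCL1. The doses of the single agents differ, so EGCG and resveratrol were not compared with each other.

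The balance between partners was also taken within each library as a log2 ratio of CPM (counts scaled to library depth), given as a description. PMAIP1 to MCL1, the NOXA and MCL1 pair, was -3.79 ± 0.163 (SD, n = 6) in control, -3.86 ± 0.144 with EGCG, -3.14 ± 0.145 under resveratrol and -3.08 ± 0.0666 under the combination. All 12 libraries with resveratrol had a higher ratio than all control libraries. BAX to BCL2L1 was -1.16 ± 0.0408 in control, -1.27 ± 0.0711 with EGCG, -1.29 ± 0.145 under resveratrol and -1.42 ± 0.0659 under the combination. The 6 combination libraries lay below the 6 control libraries, and the other groups overlapped them. BAX to BCL2, a ratio often quoted for this family, moved from its control mean by -0.16 (EGCG), -0.08 (resveratrol) and -0.09 (combination), each with overlap. BAK1 to MCL1 was lower than control by -0.16 with resveratrol, in all 6 libraries, and by -0.19 with the combination, where 5 libraries lay below all control libraries and replicate 3, at -2.47, lay above them all. BCL2L11 to BCL2L1 was higher by 0.36 with resveratrol, in all 6 libraries, and by 0.29 with the combination, where the groups overlapped.

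**Figure D4:**
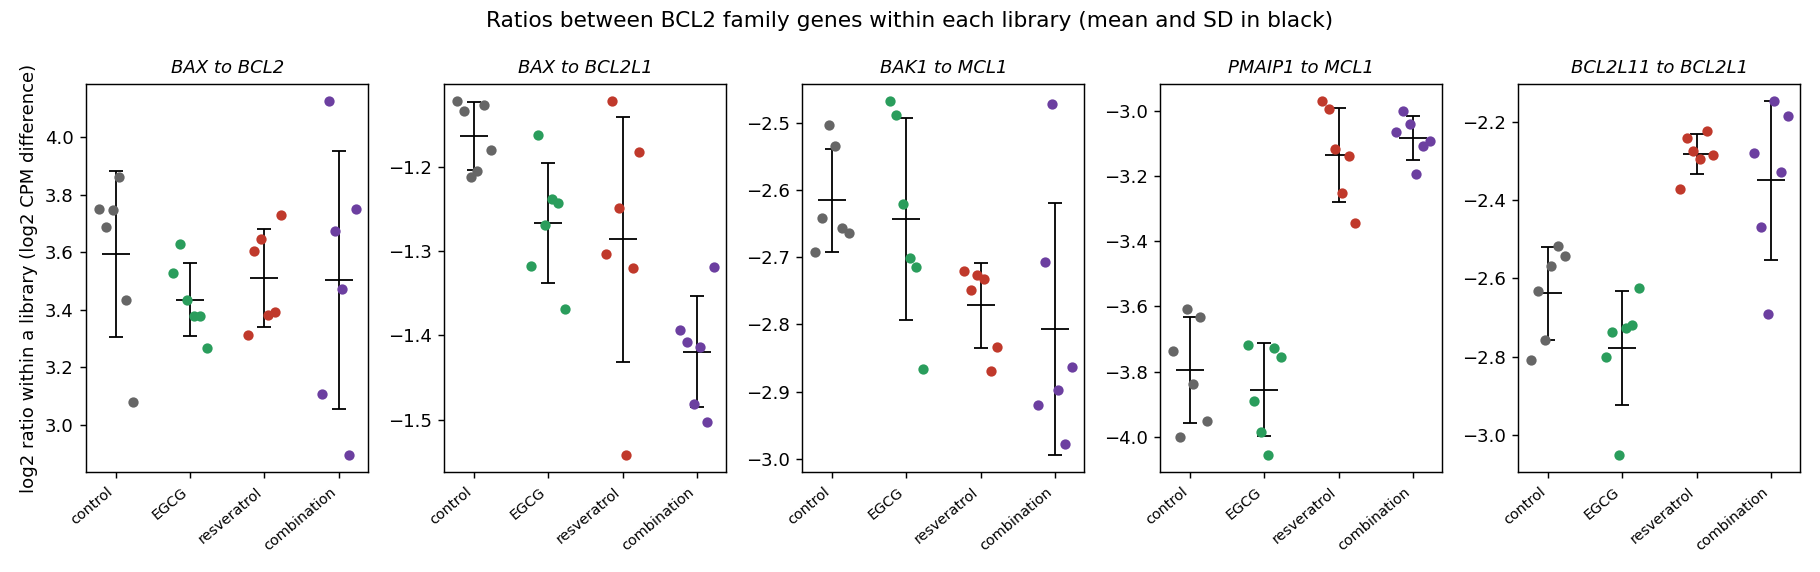
Log2 ratio of CPM between the named genes (vertical axes, each with its own range) in every library, by group, with the mean and SD of 6 libraries in black. The PMAIP1 to MCL1 ratio separates libraries with resveratrol from those without it, and the BAX to BCL2 ratio overlaps in all groups.

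Other genes of the pathway were described from lists of known function. Their counts are to be read beside the share of all genes called higher and lower in the same comparison, 29.9% and 29.9% with the combination, 28.9% and 28.0% with resveratrol, and 0.905% and 0.859% with EGCG. Of 13 other BCL2 family genes 10 were tested, and 6 were called higher and 2 lower with the combination (median log2 fold change 0.34), 6 and 1 with resveratrol (0.19), and 2 and 0 with EGCG (0.07). BBC3, which encodes the BH3-only protein PUMA, had 26.3, 37.4 and 40.5 normalized counts in control and 58.5, 74.5 and 82.7 with the combination, with no overlap (log2 fold change 0.99 ± 0.128, edgeR, adjusted p = 2.74e-08). HRK, another BH3-only gene with few counts, changed by 0.79 ± 0.265 (edgeR, adjusted p = 0.0109), and BNIP3L, a mitophagy receptor, by 0.57 ± 0.0627 (edgeR, adjusted p = 8.91e-10). The HRK call was lost within replicates 1 to 3, at 0.80.

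Downstream of the mitochondria, and against the same shares of all genes (29.9% called higher and 29.9% lower with the combination), 11 of 11 apoptosome and caspase genes were tested, with 3 called higher and 4 lower with the combination (median -0.01), 3 and 2 with resveratrol, and 0 with EGCG by edgeR. CASP9, the initiator caspase of this route, rose by 0.65 ± 0.104 with the combination, while APAF1, its scaffold, fell by 0.32 on the log2 scale with an SE of 0.0723 and DFFB, the nuclease of apoptotic DNA cutting, fell by 0.57 with an SE of 0.179. Of 10 inhibitor of apoptosis genes and their antagonists 7 were tested, with 3 higher and 2 lower with the combination (median 0.01), 3 and 2 with resveratrol, and 1 and 0 with EGCG. BIRC3 rose from a median of 107 normalized counts in control to 336 with the combination (log2 fold change 1.58 ± 0.085, edgeR, adjusted p = 6.20e-18), BIRC2 rose by 0.37 ± 0.0552, and BIRC5, which encodes survivin, fell by 0.47 on the log2 scale with an SE of 0.0371.

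Against the same shares of all genes (29.9% and 29.9% with the combination), of 12 binding partners and ubiquitin enzymes of BCL2 proteins 11 were tested, with 3 higher and 4 lower with the combination (median -0.02), 3 and 4 with resveratrol, and 0 with EGCG by edgeR. VDAC1, a channel of the outer membrane, fell by 0.55 on the log2 scale with an SE of 0.0284, USP13, a deubiquitinase of MCL1, fell by 0.39 with an SE of 0.0507, and DYNLL2, the light chain that holds BMF, rose by 0.38 ± 0.0282. All 10 transcription factors known to act on BCL2 family genes were tested, with 7 higher and 1 lower with the combination (median 0.16) and 6 and 1 with resveratrol (0.12). ATF3 had 108, 114 and 119 normalized counts in control and 344, 398 and 440 with the combination (log2 fold change 1.80 ± 0.0666, edgeR, adjusted p = 1.19e-22). DDIT3, which encodes CHOP, rose by 1.08 ± 0.0634, and for both genes all combination libraries were above all control libraries.

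**Figure D5:**
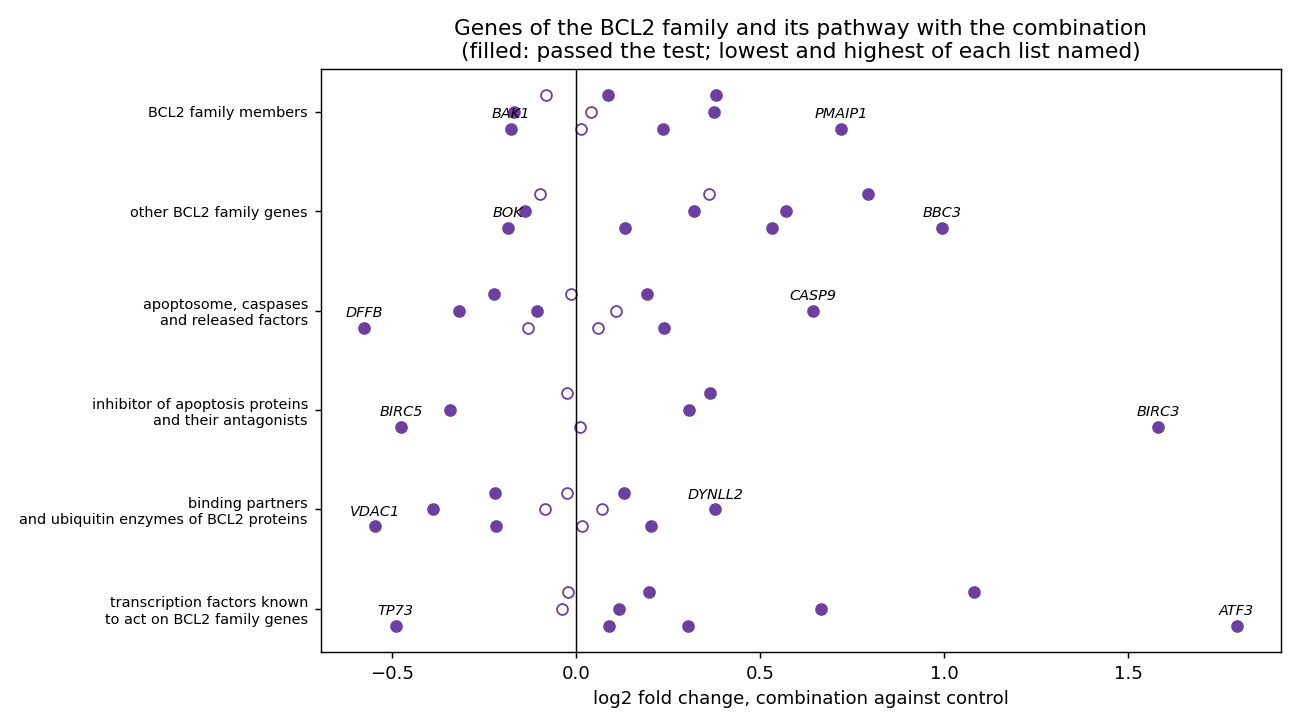
Log2 fold change with the combination against control (horizontal axis) of the 10 BCL2 family genes and of the tested genes of 5 related lists (rows), with filled points for genes that were called and the lowest and highest gene of each row named. PMAIP1 at 0.72 is the highest of the 10 genes, and ATF3 at 1.80 and BIRC3 at 1.58 are the highest points of all rows.

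PMAIP1 had the smallest p of the 10 genes with the combination, and the 3 genes of all tested whose log2 CPM followed it most closely over the 24 libraries were MIA2 (Pearson r = 0.943), NMRAL2P (0.942) and YPEL5 (0.941). This is a description over libraries that share their group and fall into those with and those without resveratrol, and the 3 genes had log2 fold changes of 0.74, 1.67 and 0.98 with the combination.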

How the data were processed

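Total RNA of MDA686TU cells was made into stranded mRNA libraries (TruSeq) and sequenced as paired reads. Per the submitters' processing notes and the methods, the authors used bcl2fastq 2.17.1.14, Trimmomatic 0.36, FastQC 0.11.5, HISAT2 2.0.4 (GRCh38), SAMtools 1.3.1 and DESeq2 1.20.0. The counting program, annotation release and strand setting are not given in the sources used here, so reads of overlapping or copied genes are of uncertain origin. The authors deposited raw counts per gene, without normalization or pooling. The deposited normalized counts, a signal per gene, are those counts divided by 1 size factor per library, and the deposited FPKM values are in addition divided by gene length. Levels come from the latter tables.

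The raw counts of the 24 libraries entered 1 model in edgeR 4.0.16 (R 4.3.3; TMM, filterByExpr, quasi-likelihood test), with groups from the labels and p-values adjusted over 15476 genes (adjusted p under 0.1 and p under 0.05). Log2 CPM used a prior count of 2. The steps were tested on simulated data. Counting error adds to the SD of genes with few counts, such as BMF and BCL2. Alternatives were DESeq2 1.42.0, its size factors, library size alone, 2 filters, an adjusted p under 0.05, only the groups compared, the replicate number as a block, replicates 1 to 3 or 4 to 6 alone or as a term, and each library left out.

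The 10 genes, the lists and the tests were chosen with earlier results of these data known. Of each other list the text names up to 3 genes with the largest absolute change among those called with the combination, and, for the member with the smallest p, the 3 genes that correlate best with it. For 1 gene that the rule picks, values are not reported here. Symbols and positions are from GENCODE 44. Promoters are from RefSeq, where 8 of the 10 genes had a window. BIK and MCL1 had none. Single genes that the lists do not hold, and the mouse and protein experiments, were not analysed here.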

Additional observations from a re-analysis of the deposited data

Results flagged for a closer look

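In 40 groups of 6 libraries (10 genes, 4 groups), 2 held a library set apart from the other 5 by more than Dixon's 95% limit for 6 values, where chance gives about 1 in 20. For MCL1 with the combination, replicate 3 had 2261 normalized counts and the other 5 libraries 2670 to 2826. The same library had the highest BCL2L1 value of its group, 1347, and it lay farthest from its group over all genes. For BAX with EGCG, replicate 2 had 555.8 normalized counts and the other 5 libraries 473 to 502. BAX was not called against control with EGCG whichever library was left out, at edgeR adjusted p-values of 0.844 to 0.999 over 12 fits.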

How the results depend on the processing

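The 75 single-gene results took 1824 values under the alternatives, and 56 of these changed their call. Among the 56, 2 also reversed the sign of their log2 fold change. Reversals of sign were counted only for results called in the edgeR model described above, not for those that it did not call. The reversed values were MCL1 with resveratrol, 0.011 with library size alone, and BIK with resveratrol, -0.031 with replicates 1 to 3 alone. The number of the 10 genes called was 4 in place of 7 with resveratrol and 4 in place of 7 with the combination when replicates 1 to 3 were fitted alone, where 3 libraries meet 3. The shares of all genes called in the fits on fewer libraries, here and below, are not given. Fewer calls in these genes therefore cannot be told apart from fewer calls over all genes. The combination against resveratrol had 0 called, and 1 with the replicate number as a block (MCL1), with replicates 1 to 3 alone (BCL2L1) or with replicates 4 to 6 alone (MCL1). Leaving out each library gave 0 to 1 in that comparison, 5 to 8 with resveratrol, 6 to 7 with the combination, 5 to 7 for the combination against EGCG, and 0 with EGCG and for the interaction. The replicate numbers were not taken to pair the libraries, since not every pair passed 0.1: in 36 same-numbered pairs the correlation of deviations from the group means was mostly positive but weak, from -0.0111 to 0.131, with 2 above 0.1, and 11 of 24 libraries correlated best with their own number. The block changed no other call of the 10 genes. Among the lists, library size alone called 8 in place of 5 apoptosome and caspase genes with resveratrol, and DESeq2 called 1 in place of 0 transcription factors for the interaction. Of all genes, library size alone called 6147 higher and 2857 lower with resveratrol, in place of 4466 and 4341. For the interaction DESeq2 called 55 of all genes higher and 14 lower, in place of 32 and 9. The cause of these changes was not tested. Raw counts of 6 to 61 limit BMF and BCL2.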

Other observations

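Of the 10 tested relatives of the family, 2 were called higher with EGCG alone, where 0.905% of all genes were called higher and 0.859% lower. Both are mitophagy receptors with a BH3-like motif, named here after their values were seen. BNIP3 rose with EGCG by a log2 fold change of 0.83 ± 0.0523 (edgeR, adjusted p = 8.05e-14) and BNIP3L by 0.40 ± 0.0633 (edgeR, adjusted p = 0.00013), each in libraries that did not overlap the control. BNIP3 was lower than control with resveratrol (-0.20 ± 0.0574, edgeR, adjusted p = 0.00427) and higher with the combination (0.53 ± 0.054, edgeR, adjusted p = 1.42e-10), while BNIP3L was higher with both. The interaction of the agents was not called for BNIP3 (-0.10, edgeR, adjusted p = 0.823) or BNIP3L (-0.24, edgeR, adjusted p = 0.432).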
